A study of Homo sapiens with 4 samples.

Results

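New MBD-seq peaks in coding exons away from transcript starts were a small part of the off-target DNA methylation left by an overexpressed epigenome editor. Of 12864 new peaks in the cells that received the wild type editor, 194 had their summit, the base with the most fragments, in the coding sequence of a canonical protein-coding transcript and more than 1000 bp from every annotated transcript start of any gene. The median distance of these summits to the nearest start was 2775 bp, and 68 lay no more than 2000 bp from one. Positions are in hg19, chromosomes 1 to 22 were searched, and the annotation was GENCODE release 44 lifted to that build, with 245096 transcript starts. These 194 peaks, called gene-body coding peaks here, were 1.53% of the 12667 new peaks on those chromosomes and 10.8% of the 1789 peaks with a summit in canonical coding sequence. They lay in 185 genes. One peak was found in 177 of them, 2 peaks in 7 genes and 3 peaks in SPTBN4.

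In MBD-seq, fragments of sheared genomic DNA are captured by the MBD2 protein, which binds methylated CpG sites, and are then sequenced. The human embryonic kidney line HEK293 was measured in 4 conditions with 1 library each. One condition was untreated cells. The other conditions were collected by flow cytometry 3 days after co-transfection with dCS, a catalytically dead Cas9 carrying a SunTag peptide array, an sgRNA for the promoter of ISG15, and Ab-3A3L, an antibody fragment that binds the SunTag fused to the C-terminal domains of DNMT3A and DNMT3L. Ab-3A3L carried either wild type DNMT3A or the K844E or R887E exchange. The values below come from the list of peaks that the authors called as new in the wild type condition. Data of the other conditions were not analysed here. Without replicates no test between conditions was made. The cells were transfected transiently and all plasmids were overexpressed, so the editor was present at levels that the labels do not give.

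DNMT3A is a de novo DNA methyltransferase, which sets methyl groups at CpG sites that carried none. DNMT3L is a catalytically inactive relative that stimulates it. CpG islands (CGIs) are stretches in which CpG sites have not been lost during evolution, and those at promoters are mostly unmethylated. The bodies of transcribed genes, by contrast, are usually methylated in mammals, and some coding exons contain CGIs of their own, often in genes of development and signalling. Sites that are already fully methylated in untreated cells cannot gain more.

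The DNA under these summits differed widely in its CpG content. The following sequences show up to 60 bp on either side of the summit on the coding strand, 5′ to 3′, cut at the end of the coding sequence, with every CpG in capitals. They are read from the GRCh37 reference and some run past the splice site into the intron. DUSP15, TEAD3, WNT8B, CYP4F22 and LORICRIN are shown because their peaks were among those with the highest fold.
DUSP15, chr20:30449209-30449278, minus strand: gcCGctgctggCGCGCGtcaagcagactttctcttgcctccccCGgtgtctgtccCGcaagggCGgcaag
TEAD3, chr6:35454201-35454321, minus strand: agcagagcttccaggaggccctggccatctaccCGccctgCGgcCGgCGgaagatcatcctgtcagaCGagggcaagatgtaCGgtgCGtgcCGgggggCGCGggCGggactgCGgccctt
WNT8B, chr10:102242332-102242452, plus strand: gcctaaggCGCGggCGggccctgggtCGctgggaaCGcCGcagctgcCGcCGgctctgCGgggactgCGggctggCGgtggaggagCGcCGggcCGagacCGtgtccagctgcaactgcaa
CYP4F22, chr19:15662154-15662274, plus strand: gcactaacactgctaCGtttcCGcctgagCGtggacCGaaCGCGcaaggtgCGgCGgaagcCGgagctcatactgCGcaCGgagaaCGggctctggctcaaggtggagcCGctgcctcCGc
LORICRIN, chr1:153234014-153234134, plus strand: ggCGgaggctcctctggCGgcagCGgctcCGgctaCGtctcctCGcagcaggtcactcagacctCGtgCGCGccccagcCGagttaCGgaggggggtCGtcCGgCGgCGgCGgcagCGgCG
The 121 bp of LORICRIN held 18 CpGs, those of WNT8B 15, those of CYP4F22 14 and those of TEAD3 12. The window of DUSP15, which ends after 70 bp, held 7.

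Further windows show other kinds of peak. STRA8 and ADAMTS16 are shown as a high-fold peak outside CGIs and as the peak farthest from any transcript start, and AJM1 and NSMF as the peaks with the lowest fold.
STRA8, chr7:134925318-134925438, plus strand: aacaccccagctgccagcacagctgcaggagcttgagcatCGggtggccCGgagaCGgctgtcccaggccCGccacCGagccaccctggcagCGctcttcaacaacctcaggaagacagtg
ADAMTS16, chr5:5318188-5318308, plus strand: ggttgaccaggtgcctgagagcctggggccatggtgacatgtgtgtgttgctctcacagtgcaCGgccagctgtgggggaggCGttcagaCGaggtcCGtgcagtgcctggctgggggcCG
AJM1, chr9:139739712-139739832, plus strand: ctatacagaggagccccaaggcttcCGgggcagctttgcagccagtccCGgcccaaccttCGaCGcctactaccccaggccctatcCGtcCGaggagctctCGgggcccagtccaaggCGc
NSMF, chr9:140352058-140352178, minus strand: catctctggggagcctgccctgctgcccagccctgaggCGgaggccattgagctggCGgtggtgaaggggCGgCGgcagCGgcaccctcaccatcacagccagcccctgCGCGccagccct
These windows held 6 CpGs in STRA8, 5 in ADAMTS16, 8 in AJM1 and 7 in NSMF. The peak in AJM1 lay in a CGI and the others did not. The fold was 11.2 at STRA8 and 5.04 at ADAMTS16, and it was 1.81 at AJM1 and 1.86 at NSMF.

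Gene-body coding peaks had lower folds than new peaks in general, and they stood on a higher background. The fold is the number of fragments at the summit over the number expected there, each raised by 1, and both numbers were recovered from the listed fold and p-value. The background rate is that expected number. That it was taken from a control library, the untreated cells, is an inference from the values. The median fold was 4.79 in the 194 peaks, with quartiles of 3.15 and 7.99, against 7.45 in all new peaks, 7.75 in coding exons within 1000 bp of a start and 7.96 at start sites outside coding exons. Introns and sequence outside coding genes had medians of 5.84 and 5.86, and the 52 peaks in exons outside the coding sequence had 4.62. A fold of at least 10 was reached by 34 of the 194 peaks (17.5%, 95% exact binomial interval 12.5 to 23.6%), against 25.5% of all new peaks. The share was 28.5% in coding peaks near a start, but 10.2% in introns (8.13 to 12.7%) and 12.8% outside coding genes (11.1 to 14.7%). In exons outside the coding sequence it was 9.62% (3.20 to 21.0%). These intervals and those below cover counting error only.

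The median number of fragments at the summit was 24 in gene-body coding peaks and 17 in all new peaks, and after subtraction of the background it was 19.6 and 15.8. The median background rate was 3.61 fragments, against 0.948 in all new peaks and 0.895 in coding peaks near a start. Away from starts it was 3.39 in exons outside the coding sequence, 2.08 in introns and 1.97 outside coding genes. At 132 gene-body coding peaks (68.0%) the rate was at least 2, against 29.5% of all new peaks, and only 21 (10.8%) stood on the genome-wide rate of 0.611, the lowest that the list contains. For exons outside the coding sequence the share at 2 or more was 67.3%, for introns 51.7% and outside coding genes 49.9%. Within classes of like background the folds lay close to those of all new peaks where the rate was at least 2, and above them where it was lower. With a rate of at least 5 the median fold was 3.05 in 85 gene-body coding peaks and 3.07 in all new peaks. With a rate from 2 to 5 it was 5.42 and 5.32, with lower rates above the genome-wide one 9.96 and 8.26, and on the genome-wide rate 11.8 and 9.31. The median numbers of fragments in these classes, from the highest rate to the lowest, were 31, 21, 20 and 18 in gene-body coding peaks and 31, 21, 16 and 14 in all new peaks. Since the fold falls with the rate by its own formula, the lower folds of gene-body coding peaks and their higher background are not independent measurements. How much of the background reflects methylation in untreated cells was not tested.

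**Figure D1:**
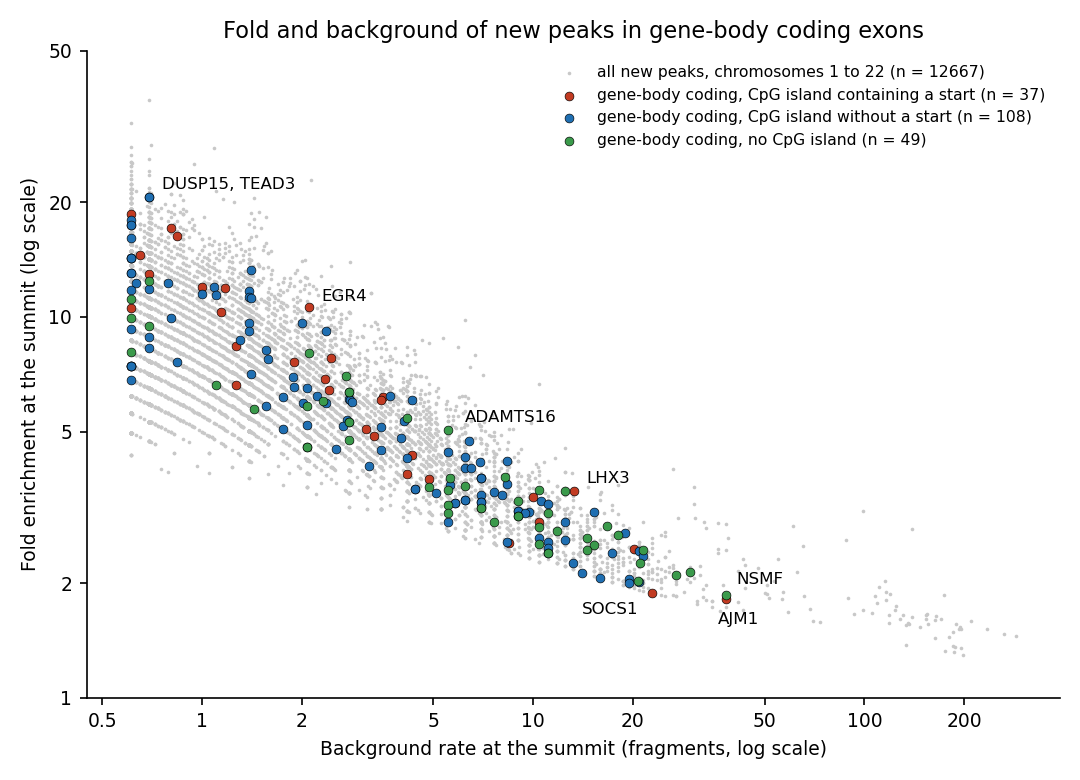
Fold enrichment at the summit (y axis, log scale) against the background rate in fragments (x axis, log scale) for the 194 gene-body coding peaks, coloured by the kind of CGI they lie in, and for all 12667 new peaks on chromosomes 1 to 22 (grey). The coding peaks lie within the cloud of all peaks and spread along it, from DUSP15 and TEAD3 at a fold of 20.7 to AJM1 at 1.81.

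Most gene-body coding peaks lay in CGIs, although a smaller share than of all new peaks. CGIs were rebuilt from the sequence by the UCSC criteria (over 200 bp, GC of at least 50%, ratio of observed to expected CpGs over 0.6). A CGI was overlapped by 145 of the 194 peaks (74.7%, interval 68.0 to 80.7%), against 89.2% of all new peaks, 96.6% of coding peaks within 1000 bp of a start, 45.0% of intron peaks and 60.6% of peaks outside coding genes. Of the 194, 108 lay in a CGI without any annotated start, 37 in a CGI that also contains a start, and 49 in no CGI. The median fold was 6.43 in CGIs with a start, 5.19 in CGIs without one and 3.51 outside CGIs, and the median background rates ran the opposite way, at 2.46, 3.02 and 6.25. The peaks were between 253 and 2458 bp wide and held 6 to 253 CpGs. Their median density was 9.41 CpGs per 100 bp, against 10 in all new peaks and 5.86 in intron peaks. Across the 194 peaks Spearman's rho between the number of CpGs in a peak and the fragments above background was 0.0562, and across all new peaks it was 0.349. These are values across called peaks of 1 library, which share depth and base composition. A peak on a higher background needs more fragments to be called, which also shapes both values.

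Per base, CpG-dense coding sequence inside genes held fewer summits than sequence near starts in the same class of CpG density. Bases with at least 8 CpGs per 100 bp within 150 bp on either side made up 0.642 Mb of gene-body coding sequence and held 126 summits, or 196 per Mb (95% exact Poisson interval 163 to 234). Coding exons within 1000 bp of a start held 892 per Mb at that density (846 to 940), which is 4.55 times as many, and start sites outside coding exons held 851. Introns held 267 (232 to 306) and sequence outside coding genes 403 (371 to 436). Exons outside the coding sequence, with 14 summits, held 183 (100 to 307), an interval that contains the value of the coding exons. This class is open at the top, so densities within it can differ. Over all peaks, the median density around the summit was 9.63 in gene-body coding peaks and 11.3 in coding peaks near a start. In the closed class from 5 to 8 CpGs per 100 bp, gene-body coding exons held 29.7 summits per Mb (20.7 to 41.4). Coding exons near a start held 137 there (116 to 161). From 2 to 5 CpGs per 100 bp the order was not the same, since gene-body coding exons held 5.92 summits per Mb (4.07 to 8.31) and introns 3.44 (3.06 to 3.84). Under 2 CpGs per 100 bp no summit fell in 13.1 Mb of gene-body coding sequence, which allows up to 0.229 per Mb.

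CGIs with coding bases inside genes rarely carried a new peak. Of 48662 CGIs, 20.3% overlapped a new peak. Among the 2590 CGIs that contain gene-body coding bases and lie more than 1000 bp from every start, 116 did (4.48%, interval 3.71 to 5.35%). The share was 51.4% in CGIs with coding bases within 1000 bp of a start, 2.11% in CGIs of gene bodies without coding bases and 4.03% in CGIs outside coding genes. These classes differ in size, with medians of 31.5 CpGs in gene-body coding CGIs and 89 in CGIs with coding bases near starts. Gene bodies without coding bases had a median of 22 and sequence outside coding genes 23. The difference to CGIs near starts was also seen between CGIs of like size. With 100 or more CpGs, 34 of 258 gene-body coding CGIs had a peak (13.2%, 9.30 to 17.9%), against 72.6% near starts, 24.9% outside coding genes and 12.8% in gene bodies without coding bases. With 50 to 99 CpGs the shares were 9.30%, 51.3%, 18.8% and 7.53% in the same order. None of the 370 gene-body coding CGIs with up to 19 CpGs had one, which allows up to 0.811%. Whether these CGIs were already methylated in untreated cells was not analysed here.

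**Figure D2:**
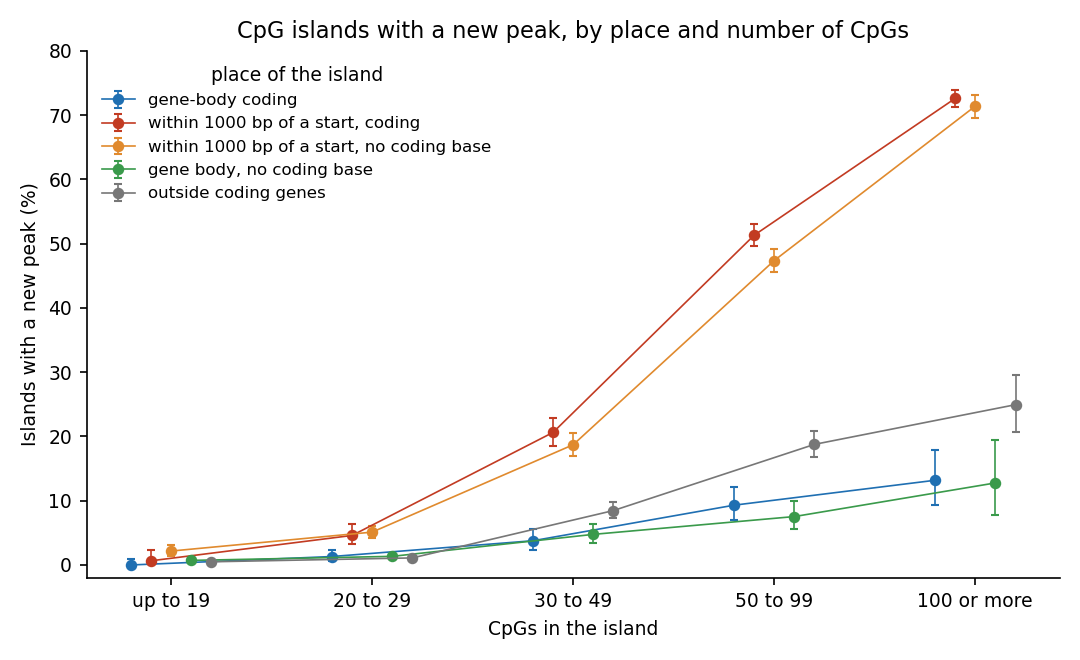
Percentage of CGIs that overlap a new peak (y axis) by the number of CpGs in the CGI (x axis) and the place of the CGI, with 95% exact binomial intervals as bars. Gene-body coding CGIs rise from 0 of 370 in the smallest class to 13.2% in the largest, where CGIs with coding bases near a start reach 72.6%.

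Along the coding sequence, the summits lay mostly toward the 3′ end. The last coding exon held 84 of them (43.3%), internal coding exons 71 (36.6%), genes with a single coding exon 22 (11.3%) and the first coding exon 17 (8.76%). The last or single coding exon thus held 106 (54.6%, interval 47.4 to 61.8%), whereas these exons make up 24.3% of all gene-body coding bases. In sequence with at least 8 CpGs per 100 bp the same exons made up 56.4% of the bases and held 76 of 126 summits (60.3%, 51.2 to 68.9%), so at that density the share of summits did not differ from the share of bases beyond counting error. Internal exons, which are short, made up 71.6% of all gene-body coding bases and 32.1% of the dense ones. From 5 to 8 CpGs per 100 bp, last coding exons held 56.3 summits per Mb (33.9 to 88.0) and internal ones 18.3 (9.43 to 31.9). Single coding exons held 9.82 there (0.249 to 54.7), from 1 summit. From 2 to 5 CpGs per 100 bp the intervals of last (4.06 to 15.6) and internal exons (3.34 to 8.24) overlapped. How much of the 3′ placement goes with CpG density was not tested. The median summit lay at 72.6% of the coding length from the start codon, with 132 of 194 summits beyond 50% of the length and 30 beyond 90%. The distance rule itself removes the beginning of most coding sequences. The share of the remaining coding bases beyond 50% or 90% was not counted, so an excess of summits there cannot be read from these counts. Of 119360 coding exons that reach beyond the distance limit, 190 held a summit (0.159%), and the share was 3.25% of exons in a CGI and 0.0435% of exons outside one. Within CGIs it was 6.01% of single, 5.48% of last, 4.11% of first and 1.70% of internal coding exons, whose median coding lengths were 1227, 420.5, 943 and 184 bp.

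**Figure D3:**
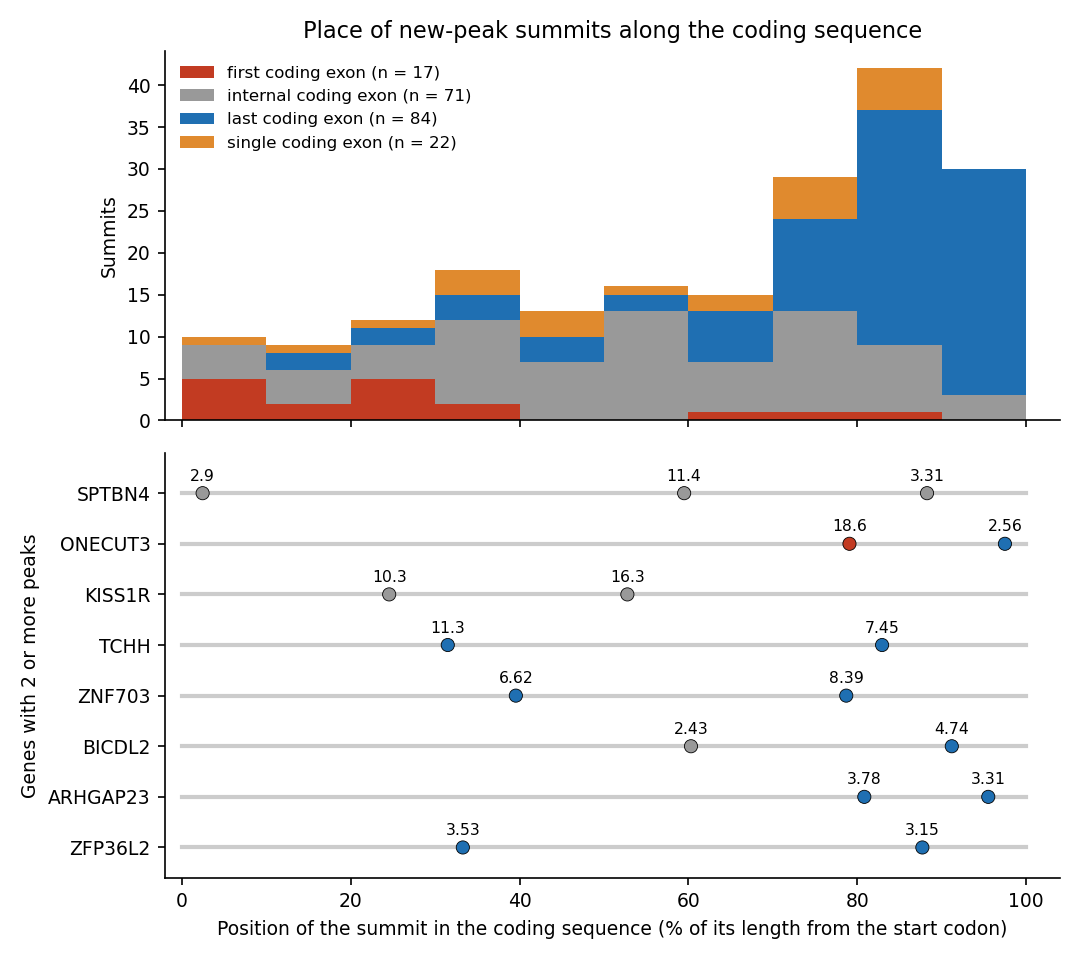
Top, number of summits (y axis) by position along the coding sequence in percent of its length (x axis), stacked by exon class (194 summits). Bottom, the summits in the 8 genes with 2 or more peaks on the same axis, coloured by exon class, with the fold above each point. Beyond 50% of the coding length lie 132 summits and beyond 90% lie 30. The share of coding bases at these positions was not counted.

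The highest folds were found in genes of diverse function. DUSP15, a dual-specificity protein phosphatase, had a peak of 813 bp at chr20:30448823-30449635 in exon 7 of 7, with 34 fragments on a background rate of 0.694 and a fold of 20.7. TEAD3, a transcription factor of the Hippo pathway, had the same 34 fragments, rate and fold at chr6:35453882-35454641 in exon 2 of 13, its first coding exon. The peak of ONECUT3, a homeodomain factor, reached 18.6 in exon 1 of 2. WNT8B, a WNT ligand of the developing forebrain, reached 18.01 at chr10:102241911-102242668 in exon 6 of 6, 19626 bp from its own start. The start nearest to that summit, at 7536 bp, was one of SEC31B. CYP4F22, a fatty acid hydroxylase of the epidermal lipid barrier, reached 17.4 in exon 14 of 14, 42878 bp from its own start.

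BMP6, a ligand of the BMP family, reached 17.4 as well, in exon 1 of 7 and 1310 bp from its start, and with 2458 bp and 249 CpGs its peak was the widest. FMN2, a formin that nucleates actin filaments, had the third widest peak (2241 bp) and a fold of 17.1. KISS1R, the kisspeptin receptor, reached 16.3, CRH, corticotropin-releasing hormone, 16.1 and SOX12, a SOX transcription factor, 14.5. APBB1IP, an adaptor of integrin activation, KLHL31, a kelch-like protein, and LORICRIN, a main protein of the cornified envelope, shared a fold of 14.3 with 22 fragments each on the genome-wide rate. Of these 13 peaks, DUSP15, TEAD3, WNT8B, CYP4F22, CRH, APBB1IP, KLHL31 and LORICRIN lay in CGIs without an annotated start. ONECUT3, BMP6, FMN2, KISS1R and SOX12 lay in CGIs that contain one. None of them lay outside CGIs.

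The other peaks with a fold of at least 10 came from genes of equally mixed kind, named here after their values had been seen. CPEB3, a regulator of mRNA translation in neurons, had 13.3 in its first coding exon. ADM, the gene of the vasodilating peptide adrenomedullin, CDK5R2, an activator of the kinase CDK5, and SDR42E2 each reached 13.0. UNC13A, which primes synaptic vesicles for release, had a fold of 12.3 in exon 44 of 44, 82194 bp from its own start and with 69 CpGs in 550 bp. HEXIM1, an inhibitor of the elongation factor P-TEFb, had 11.9 in its single exon. SH3PXD2A, a scaffold protein of podosomes, had 11.7 in an internal exon of 45 coding bp, 186945 bp from its own start. GAS1, a growth arrest gene and hedgehog co-receptor, had 10.6 with 253 CpGs in its peak, the most of the 194, but only 16 fragments.

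Outside CGIs the highest folds were 12.4 in SYT13, a synaptotagmin, 11.2 in STRA8, a factor for entry into meiosis, and 9.93 in ZNF704, a zinc finger gene. The STRA8 peak of 323 bp held 8 CpGs and had 17 fragments on the genome-wide rate. The SYT13 peak held 17 CpGs and had 20 fragments. The 49 peaks outside CGIs had a median of 14 CpGs and 25 fragments. They had CpG numbers well below the median of 42 in all gene-body coding peaks, while the fragments above background, with a median of 19.98, were close to the 19.6 of all. Their median background rate was 6.25, against 3.61 in all, and a peak on a higher background needs more fragments to be called. The like values therefore do not measure the role of CpG number.

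Peaks far from starts had folds in the same range as the others. The farthest summit lay 58701 bp from any start, in exon 22 of 23 of ADAMTS16, a secreted metalloprotease, with 32 fragments on a background rate of 5.55 and a fold of 5.04. PLEKHM3 followed at 46453 bp, with 10 fragments, the fewest of the 194, and a fold of 6.83. GRIK4, a kainate receptor subunit, lay at 38101 bp in its last exon and 474223 bp from its own start, with a fold of 8.26. The median fold was 4.99 in the 68 peaks from 1000 to 2000 bp of a start, 4.28 in the 101 peaks from 2000 to 10000 bp and 5.85 in the 25 beyond. At the limit itself, HCN4, a pacemaker channel, had a coding summit just below 1000 bp, at 985 bp, with a fold of 12.2. Just beyond it were BBC3 and SOCS1, both at 1022 bp, with folds of 7.60 and 1.88.

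The lowest folds came from peaks with many fragments on a high background. AJM1, a gene for a protein of apical cell junctions, had 70 fragments on a rate of 38.2 and a fold of 1.81. NSMF, a synaptonuclear signalling factor, had 72 fragments, the most of the 194, on the same rate and a fold of 1.86. Both lie on chromosome 9, whose 14 gene-body coding peaks had a median background rate of 16.7 and a median fold of 2.60. SOCS1, a suppressor of cytokine signalling, followed with 44 fragments on a rate of 22.9 and a fold of 1.88. These peaks thus had high counts in the treated library and low folds.

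In the 8 genes with more than 1 peak, the closest summits lay between 657 and 20571 bp apart. SPTBN4, a beta spectrin of the axon initial segment and nodes of Ranvier, had summits in exons 3, 21 and 31 of 36 over 80401 bp. Their folds were 2.90, 11.4 and 3.31, with 24, 23 and 23 fragments, so that the fragments were alike and the background rates of 7.63, 1.11 and 6.25 were not. TCHH, trichohyalin, a structural protein of the hair follicle, had both its peaks in exon 3, 3000 bp apart, with folds of 11.3 and 7.45. The first of them, at 2315 bp, was the second widest of all. KISS1R had folds of 10.3 in exon 2 and 16.3 in exon 4. ONECUT3 had 18.6 in its first exon and 2.56 in its last, 20571 bp away. ARHGAP23, ZFP36L2 and ZNF703 each had both summits in their last exon, 657, 807 and 693 bp apart. BICDL2 had summits 1340 bp apart in exons 6 and 10. Peaks of 1 gene share a library and a chromosomal region, and they are not replicates of each other.

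Gene groups were compared by the share of their genes with a peak among the genes that have a gene-body coding CGI at all, whether or not the peak lay in that CGI. Over all genes, 149 of 2596 had one (5.74%, 4.88 to 6.70%). The shares of the groups ran from 0 to 15.8%, and the interval of each contained 5.74%. Of 74 homeobox and PAX genes outside the HOX clusters, 6 had a peak (8.11%, 3.03 to 16.8%). They were ONECUT3, DLX2 (fold 6.04), LHX3 (3.49), IRX3 (3.24), LMX1B (3.08) and SIX3 (2.57), regulators of embryonic patterning. OTP, a homeobox factor of the hypothalamus with a fold of 6.04, was not on the list, which was made by symbol. The HOX clusters had none in 13 genes, which allows up to 23.1%. SOX, FOX, TBX and GATA factors had 4 of 46, namely SOX12, FOXF2 (4.88), SOX11 (3.87) and GATA5 (2.40). Zinc finger genes had 6 of 113 (5.31%), led by EGR4, an immediate early factor, with a fold of 10.6. A further one, ZNF704 with a fold of 9.93, had no gene-body coding CGI and was not among the 6.

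The clustered protocadherins, which carry large CGIs in their variable exons, had no peak in 38 genes, which allows up to 7.89%. The other cadherins had 3 in 19, namely PCDH10 (fold 11.8), CDH23 (5.15) and CDH22 (4.28). Potassium channels had 1 of 35, KCNK12 (3.24), and other ion channels 3 of 50, all glutamate receptor subunits, GRIK4 (8.26), GRIK5 (4.002) and GRIN2C (3.05). Collagen and matrix genes had 3 of 35. Counted with or without a gene-body coding CGI, 5 of these genes had a peak, each of them outside CGIs, with the highest folds in ADAMTS16 (5.04) and COL8A2 (3.06). WNT, FZD and NOTCH genes had 2 of 32, WNT8B and NOTCH3 (3.63). Axon guidance genes had 3 of 24, with UNC5CL (11.5), SEMA5B (3.42) and NTN1 (2.90). SEMA5B and NTN1 encode guidance cues, whereas UNC5CL is a relative of the netrin receptors known from inflammatory signalling. The remaining groups were chromatin genes with 3 of 29, led by PRDM12 (11.2) and PRDM13 (3.64), and G protein-coupled receptors with 1 of 51, OPRL1 (3.21). The symbols of the last list did not cover KISS1R, GIPR (9.96) and PTGER1 (2.59), which are receptors of this class. In all, 39 of the 185 genes belonged to a group.

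A few further groups were formed after the peaks had been seen, because they held peaks, so their shares are fixed by that choice and nothing is read from them beside the 5.74% of all genes. Basic helix-loop-helix factors had 5 of 21 genes with a gene-body coding CGI, with HES7 (12.3), MYOD1 (6.86), NEUROD2 (6.09), HELT (5.09) and HES3 (4.81), while TFEB (3.51), with a peak outside CGIs, had no such CGI. These include the myogenic regulator MYOD1 and HES7, an oscillating gene of somite formation. TGF-beta family ligands had 4 of 14, with BMP6, BMP2 (4.47), GDF15 (4.002) and TGFB1 (2.48). Genes of the cornified envelope and keratins had 4 of 10, with LORICRIN, CRCT1 (11.8), TCHH and CNFN (5.35), while KRT77 (2.99), with a peak outside CGIs, had no such CGI.

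With the gene-body peaks themselves left out, the promoters of the same genes carried new peaks at about the general rate. Of all 18643 protein-coding genes, 44.0% had a new peak within 1000 bp of the start of their canonical transcript. Of the 185 genes with a gene-body coding peak, 103 had one (55.7%, 48.2 to 63.0%), but some of these are the gene-body peak itself, which can reach toward the start. By another peak, 87 had one (47.0%, 39.7 to 54.5%), an interval that contains 44.0%, although no peak is left out of that share. Of the genes with a gene-body coding CGI 45.3% had one. A peak in the gene body thus came with and without a peak at the start. WNT8B, APBB1IP, KLHL31 and LORICRIN had no peak within 1000 bp of their start. In BMP6, FMN2 and CRH the gene-body peak itself reached within 1000 bp of the start, and no other peak did. DUSP15, TEAD3, ONECUT3, CYP4F22, KISS1R and SOX12 had another peak there. In 24 of the 194 another new peak lay within 1000 bp, and 8 peaks themselves covered an annotated start although their summit lay farther away.

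The CpGs under the peaks did not fall evenly on the codon. A CpG whose C is the first base of a codon begins an arginine codon, one at the second base ends a codon of serine, proline, threonine or alanine, and one at the third base joins 2 codons. Of 7366 coding CpGs in gene-body coding peaks, 24.3% began at the first, 31.9% (30.8 to 32.9%) at the second and 43.8% at the third position. In all gene-body coding exons the shares were 34.5%, 25.2% and 40.2%. Gene-body coding CGIs without a new peak had 26.8% at the first position, 27.6% (27.3 to 28.0%) at the second and 45.6% at the third. At the first position they were thus nearer to the peaks, at the second nearer to all gene-body coding exons, and at the third above both. Coding peaks near a start had 23.3%, 33.0% and 43.7%. CpGs of 1 peak are not independent, so these intervals are too narrow. The flank of the CpG was also compared, as DNMT3A is known to prefer some flanks over others. RCGY, an R before and a Y after the CpG with R for a purine and Y for a pyrimidine, made up 25.1% of the 10505 CpGs in gene-body coding peaks (24.3 to 25.96%). It made up 26.3% in gene-body coding CGIs with a new peak, 25.4% in those without, 23.7% in all new peaks and 21.4% in all gene-body coding exons. Gene-body coding peaks and gene-body coding CGIs without a peak did not differ beyond the interval.

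**Figure D4:**
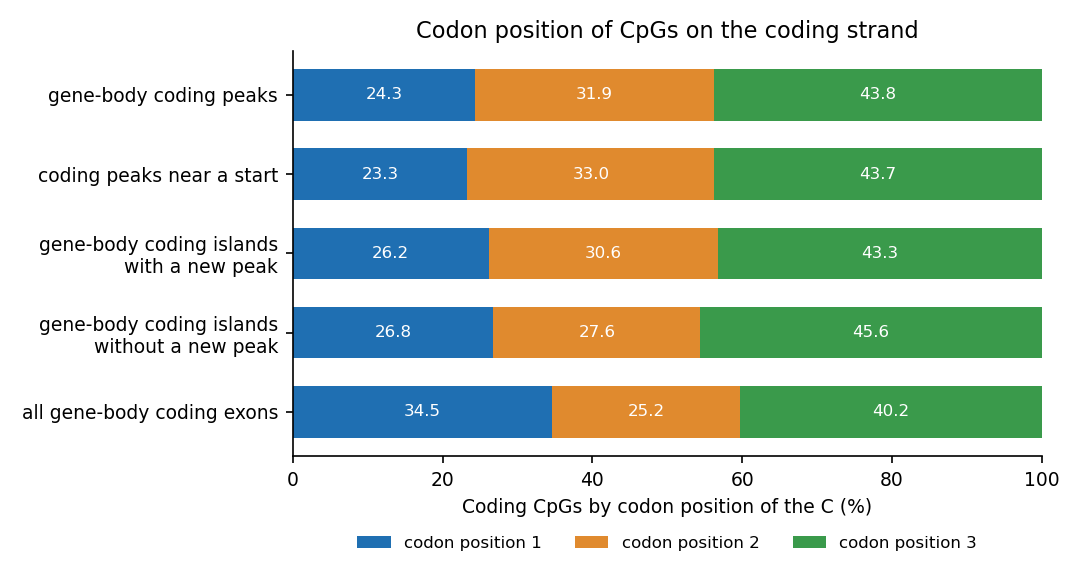
Percentage of coding CpGs whose C is at codon position 1, 2 or 3 (x axis, stacked bars) in 5 sets of sequence (y axis). Position 1 falls from 34.5% in all gene-body coding exons to 24.3% in gene-body coding peaks, and position 2 rises from 25.2% to 31.9%.

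The gene-body coding peaks were distributed over 20 of the 22 chromosomes. Chromosome 19 held 38 of them (19.6%), compared with 4.97% of all new peaks and 18.5% of the gene-body coding CGIs. Chromosome 1 held 19 (9.79%, with 10.4% of all new peaks and 8.96% of these CGIs) and chromosome 17 held 16 (8.25%, with 6.62% and 6.49%). None lay on chromosomes 14 and 21, which had 328 and 114 new peaks and 66 and 40 of these CGIs. Genes on the plus and minus strand held 96 and 98. For 10 peaks the sequence had at least one other copy in the genome with at least 95% identity over at least 90% of its length, so the mapping could place their reads at either copy. These were the peaks in ATAD3A, CLEC18B, FAM131C, FCGBP, OTOA, RASA4B, RIMBP3, RIMBP3B, UPK3BL1 and UPK3BL2, with folds from 2.01 in ATAD3A to 7.81 in RIMBP3B. None of the peaks with the highest folds named above was among them.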

How the data were processed

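New peaks of HEK293 cells with wild type Ab-3A3L were used, from 1 library. The authors' methods state mapping of single-end reads to hg19 by Bowtie2 with default settings, run on Galaxy. The submitters' processing notes also name MACS2, FastQC and deepTools, without versions, and the settings of the peak calling are not given in the sources used here. The deposited list has 10 columns. The authors' score is a rounded form of the q-value and was not used further. The fold in the deposited list is a ratio, fragments at the summit over background. Other deposited columns hold −log10 p and −log10 q, and the last one gives where in the peak the summit lies.

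Summits were compared with canonical protein-coding transcripts (18643) and all transcript starts of GENCODE release 44 lifted to GRCh37. Only the canonical coding sequence and chromosomes 1 to 22 were used. CpG islands were built on unmasked sequence from segments in which a CpG scored 17 and any other base -1, and strict ones needed at least 500 bp, a GC of 55% and a ratio of at least 0.65. A peak was counted to an island at an overlap of 1 bp. Fragments at the summit and the background rate were solved from the fold, read as (fragments + 1)/(rate + 1), and from the p-value, read as the upper Poisson tail beyond that number of fragments. The solved pair gave back the listed −log10 p of every gene-body coding peak to within 2.54e-05. That the control was the untreated library is an inference. Depth limits the precision to a median of 18 fragments at the summit over the list, with no replicates. Shares have 95% exact binomial intervals and rates per Mb exact Poisson intervals. A count of 0 was given an upper limit of 3 counts. Other copies of peaks were searched with minimap2 2.31. The steps were tested on simulated data.

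The members and the gene lists were chosen with earlier results of these data known. The genes named are those of the 12 highest folds with ties, the 3 lowest, the genes with the most peaks, those nearest to the 1000 bp limit, the 3 widest, the 3 highest outside islands, the 3 farthest from a start, the 2 highest of each gene group and those with the highest and lowest background. Others were named after their values had been seen. A gene at that limit and a sequence window are not reported here. Alternatives covered the distance limit, the starts and coding sequences used, overlap in place of the summit, the peak threshold and the island criteria. The software was Python 3.11.15 with matplotlib 3.10.9, numba 0.67.0, pandas 2.3.3, numpy 2.4.6 and scipy 1.17.1, besides samtools 1.23.1.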

Additional observations from a re-analysis of the deposited data

How the results depend on the processing

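No paired analysis was possible because every condition had a single library. Of 36 alternative values, 23 stayed within the interval or within 1.5 times the reported value, none reversed, and 13 moved. The number of gene-body coding peaks, 194 as reported, was 367 beyond 500 bp of a start, 126 beyond 2000 bp, 399 when only the starts of canonical coding transcripts were used, 57 at a fold of at least the list's median and 69 at a −log10 q of at least 10. With any overlap of peak and coding sequence in place of the summit the number was 289. That value lay just within 1.5 times and was not counted as moved. The share in a CpG island was 82.8% beyond 500 bp, 89.5% at a fold of at least the median and 54.6% with strict islands. The median fold was 11.3 at a fold of at least the median, by construction. The share in the last or a single coding exon was 44.4% beyond 500 bp and 44.6% when any overlap of peak and coding sequence was counted. Of gene-body coding islands, 9.28% had a new peak with strict islands and 1.39% at a fold of at least the median. Among strict islands the share was 8.20% in gene bodies without coding bases and 19.3% outside coding genes. The causes of the other shifts were not tested. Depth limits the weakest peaks most, down to 10 fragments at a summit.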
